A study of Mus musculus with 135 samples.

Results

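The untreated control mice of this study, which had neither repeat social defeat (RSD) nor minocycline, carry mouse numbers from separate ranges. They were compared by number series, with genotype as a term, in each of both tissues, cerebral cortex and hippocampus. Series A held the mice whose number in the title begins with 53 or 96, and series B those whose number begins with 57, 58, 59, 98 or 99. These were 38 of 134 libraries with a known group, 20 from the cortex (6 of series A and 14 of series B) and 18 from the hippocampus (5 and 13). Series A had 4 AA and 2 SS mice in the cortex and 3 AA and 2 SS mice in the hippocampus, and series B had 8 AA and 6 SS mice in the cortex and 8 AA and 5 SS mice in the hippocampus.

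The study asked how RSD and minocycline act on the brain of mice with sickle cell disease, with bulk RNA sequencing of both tissues. The study describes all mice as male Townes mice (6 months old in the cohort whose age the study's methods state), in which human globin genes stand in the place of the mouse ones, with the normal adult allele in AA mice and the sickle allele in SS mice. Control mice of both series were housed without an aggressor and got no drug. Their own labels set the series apart only by mouse number and by column in the count tables. The other mice of series A had RSD alone, and those of series B had minocycline with or without RSD. The study's methods describe a cohort for RSD and a further cohort given minocycline or plain water. The labels name no cohort. Directional libraries of polyadenylated RNA were counted per gene. Levels of genes are given as counts per 10 to the power 6 reads on the genes tested (CPM), after edgeR's TMM scaling of library sizes. The log2 CPM of Alas2 is scaled to all reads on genes without TMM. In bulk tissue, fewer cells of a type and less RNA per cell cannot be told apart, and the p-values measure the spread between mice.

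In polyadenylated RNA most reads fall on the exons of spliced messenger RNA, and a smaller share falls on introns, on unannotated sequence and on RNA that stays in the nucleus. Reads that map to a single place but touch no annotated exon are counted apart as outside annotated genes. Messenger RNAs of ribosomal proteins and of the respiratory chain are found mainly in the cytoplasm, whereas some transcripts of splicing regulators keep introns and many long noncoding RNAs stay in the nucleus. The 2 genes with which the comparison is marked are Rsrp1, which encodes an arginine and serine rich protein, and Sirt7, which encodes a nuclear member of the sirtuin family of NAD-dependent deacylases.

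Reads on genes ranged from 16295042 to 52501167 in the cortex and from 19645225 to 68729401 in the hippocampus. The tissue labels held, as Prox1, a marker of dentate granule cells, was at 16.2 ± 2.63 and 17.02 ± 2.28 CPM (SD) in the cortex of series A (n = 6) and B (n = 14), and at 117 ± 31 and 105.9 ± 27.6 CPM in the hippocampus (n = 5 and 13). Several control libraries stood apart. AA mouse 9631 of series A held 1944 reads of the mouse beta-globin gene Hbb-bs in the cortex and 1570 in the hippocampus, against 7 or fewer in every other control library, and mouse 5844 of series B, labelled AA, had Alas2, the erythroid enzyme of heme synthesis, at 6.58 and 5.79 log2 CPM, where the other AA controls reached 3.5 and the SS controls began at 5.54. This level goes against the label of 5844, which the tests kept as AA. Reads of Hbb-bs likewise go against the replaced mouse globin genes of a Townes mouse in 9631, which the tests also kept as AA. The source of these reads was not tested. Both libraries of 9838 and of 5845 and the hippocampus libraries of 9822 and 9848, all of series B, left 24.5 to 41.9% of their reads unmapped.

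The share of reads outside annotated genes was lower in series A in both tissues. In the cortex it was 3.79 to 5.67% of all reads in series A (median 4.94) and 4.68 to 11.04% in series B (median 9.69), and 13 of 14 series B libraries lay above every series A library. The genotype-adjusted difference was -4.08 percentage points (exact two-sided permutation test within genotype, p = 0.000289, 13860 regroupings). In the hippocampus the 5 series A libraries held 5.73% (5349), 4.64% (5353), 5.18% (9631), 5.05% (9644) and 4.25% (9636), and series B held 4.47 to 10.7% (median 8.29). There 11 of 13 series B libraries lay above every series A library, and the difference was -3.29 points (exact permutation p = 0.00375, 3465 regroupings). Of the uniquely mapped reads alone, the share was 4.785 to 6.301% against 5.66 to 13.5% in the cortex and 5.22 to 6.37% against 5.80 to 12.9% in the hippocampus (exact permutation p = 0.000216 and 0.000866).

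The labels name no batch, but they give each library a numbered column in the count table of its tissue, and the share followed the columns. The columns up to 37 hold 8 libraries of other mice and then control and RSD + minocycline mice of series B. From column 38 on the listing starts over with further control, minocycline and RSD + minocycline mice of series B and ends with all mice of series A. Of the series B controls, only 9836 (column 39) and 5844 (column 40), both labelled AA, stood after column 37, and they held 4.68 and 5.69% (cortex) and 4.47 and 5.05% (hippocampus). The other 12 series B controls of the cortex, in columns 9 to 20, held 8.13 to 11.04% (median 9.75), and the other 11 of the hippocampus held 6.49 to 10.7% (median 8.94). Over all libraries of the series, the medians before and after the break were 9.75 and 5.24% in the cortex (n = 37 and 31) and 9.32 and 4.73% in the hippocampus (n = 36 and 30), and 4 cortex and 2 hippocampus libraries lay nearer the median of the other side. As every series A control stands after column 37, series and column block cannot be told apart except through 9836 and 5844. The break was noticed after the shares were seen, and for most groups of genes below the median or the leading genes are therefore also given within the columns from 38 on.

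**Figure D1:**
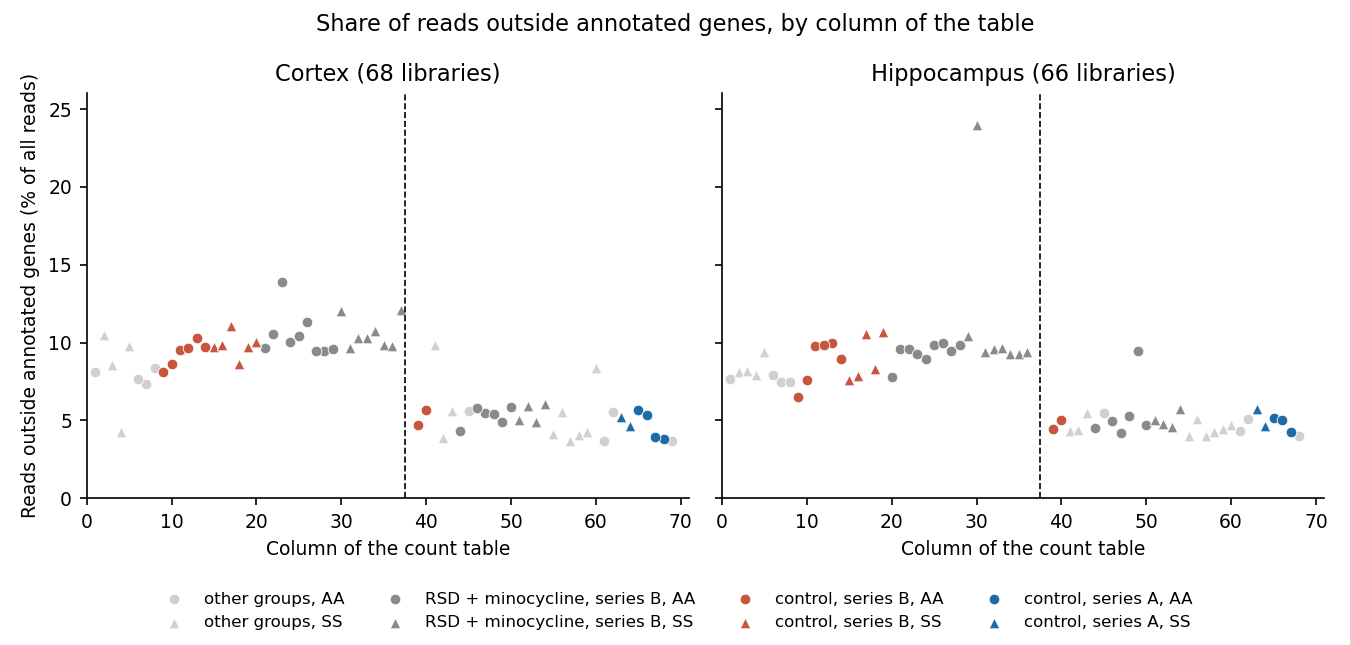
Each point is a library, placed by its column in the count table of its tissue (x axis) and by its share of reads outside annotated genes in percent of all reads (y axis), with circles for AA and triangles for SS mice; the dashed line follows column 37. The series A controls, at 3.79 to 5.73%, all stand right of the line, where the 2 series B controls 9836 and 5844 lie at 4.47 to 5.69%, whereas the other series B controls stand left of it at 6.49 to 11.04%.

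Between the series, 7941 of 19710 genes tested differed in the cortex (40.3%; edgeR's quasi-likelihood test, Benjamini-Hochberg adjusted p under 0.05), of which 3774 were higher in series A (19.1%) and 4167 lower (21.1%). In the hippocampus 8646 of 21210 genes differed (40.8%), with 4767 higher (22.5%) and 3879 lower (18.3%). The median log2 difference over all genes was -0.015 and -0.011. Among the libraries in columns from 38 on, the same edgeR test of series A against series B called 0 of 18165 genes in the cortex (6 against 2 libraries) and 0 of 18183 in the hippocampus (5 against 2), with 482 and 1662 genes at an unadjusted p under 0.05. With 2 libraries of series B there, a count of 0 does not show that the series were alike. Both are labelled AA, so with genotype as a term the contrast rests on the AA libraries of series A. These were 4 in the cortex and 3 in the hippocampus.

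Rsrp1 was lower in series A in both tissues. In the cortex its level was 144 CPM in the lowest series A library, 188 CPM at the median and 248 CPM in the highest, against 193, 396 and 456 CPM in series B. The log2 difference was -0.93 ± 0.14 (SE; edgeR adjusted p = 0.000226), and 13 of 14 series B libraries lay above all of series A, the exception being 9836. In the hippocampus the series A libraries gave 243 (5349), 220 (5353), 213 (9631), 187 (9644) and 158 CPM (9636), against 167, 348 and 417 CPM as lowest, median and highest of series B. The difference there was -0.72 ± 0.15 (edgeR adjusted p = 0.00128), with 9836 at 167 and 5844 at 222 CPM within the range of series A and the other 11 above it. Rsrp1 lies at chr4:134650860-134654982 (GRCm39). Within the columns from 38 on, its difference was -0.33 ± 0.21 in the cortex and -0.12 ± 0.15 in the hippocampus (edgeR adjusted p = 1.0 and 0.796).

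Sirt7, at chr11:120509197-120516066 (GRCm39), was lower in series A in the cortex, at 19.8, 25.6 and 32.8 CPM (lowest, median, highest) against 23.2, 44.8 and 54.1 CPM, with 12 of 14 series B libraries above all of series A (log2 difference -0.64 ± 0.12, edgeR adjusted p = 0.000609). In the hippocampus the series A libraries gave 34.1 (5349), 31.2 (5353), 35.4 (9631), 31.9 (9644) and 25.2 CPM (9636), and series B 21.1, 43.9 and 60.5 CPM. Both 9836 at 21.1 CPM and 5844 at 24.03 CPM lay below every series A library there, 9838 lay within their range and the other 10 lay above it, and the difference of -0.40 ± 0.16 did not pass the test (edgeR adjusted p = 0.0569). Within the columns from 38 on it was -0.08 ± 0.18 in the cortex and 0.39 ± 0.14 in the hippocampus (edgeR adjusted p = 1.0 and 0.546).

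**Figure D2:**
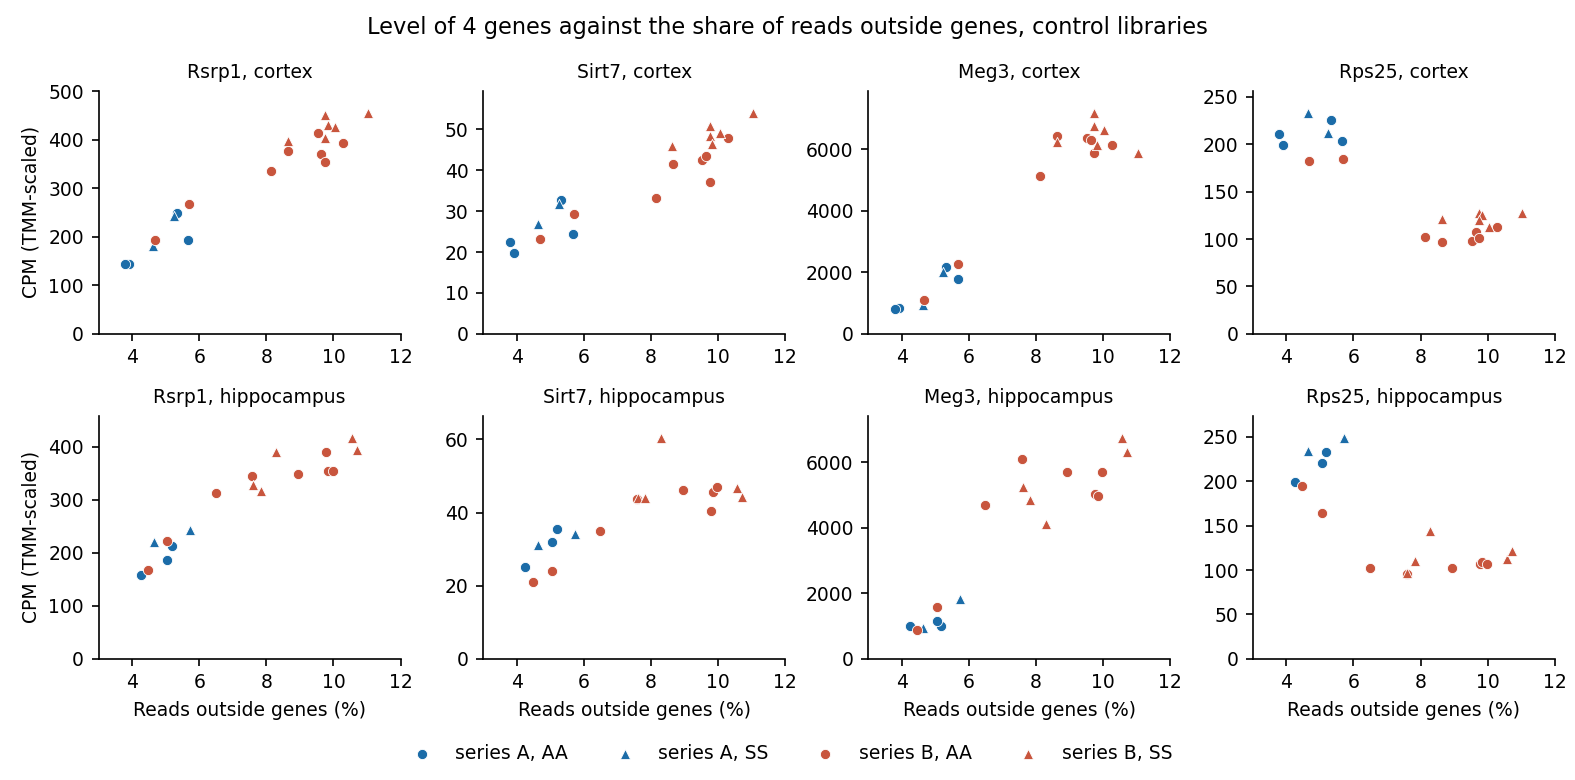
Each panel plots the level of a gene (y axis, TMM-scaled CPM from 0) against the share of reads outside annotated genes (x axis, percent) in the control libraries of the cortex (upper) and hippocampus (lower), in blue for series A and red for series B. Rsrp1, Sirt7 and Meg3 are higher and Rps25 is lower in the libraries with the larger share, and the 2 series B libraries near 5% lie beside those of series A.

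The transcript classes of the annotation moved in opposite directions. Of all reads on genes in the cortex, cytosolic ribosomal protein genes took 1.59 ± 0.10% (SD) in series A and 1.06 ± 0.20% in series B, replication-dependent histone genes 0.00704 and 0.00566%, and mitochondrially encoded genes 5.87 and 4.69% (exact permutation test within genotype, p adjusted over the classes = 0.0013, 0.00571 and 0.0185). Long noncoding RNAs (lncRNA) took 0.968% against 1.90%, TEC genes 0.0665% against 0.116%, and small nucleolar RNAs (snoRNA) 0.00134% against 0.00304%, each with an adjusted exact p = 0.00116. TEC is the annotation's label for transcribed stretches, most with a single exon, that still await proof by experiment. In the hippocampus ribosomal protein genes (1.73 against 1.08%), TEC genes (0.0591 against 0.110%), histone genes (0.0123 against 0.00862%), lncRNAs (0.893 against 1.70%) and snoRNAs (0.00157 against 0.00294%) differed in the same directions (adjusted exact p = 0.00173, 0.00173, 0.00578, 0.00346 and 0.00415), and the share of mitochondrially encoded genes (5.45 against 4.91%) did not pass the test (adjusted exact p = 0.323). In the cortex of 9836 and 5844, ribosomal protein genes took 1.504 and 1.527%, against 0.884 to 1.13% in the other series B libraries, and lncRNAs took 0.893 and 1.18%, against 1.84 to 2.21%. Their ribosomal protein shares lay within series A there (1.474 to 1.724%), as did the lncRNA share of 9836, while that of 5844 lay just above its highest library (1.158%). In the hippocampus their ribosomal protein shares, 1.51 and 1.355%, lay below every series A library (1.523% or more), and their lncRNA shares, 0.84 and 0.987%, lay within series A (0.831 to 1.034%). With 15 and 10 possible regroupings among the columns from 38 on, the class shares could not reach a p under 0.05 there.

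Counted by gene, the TEC genes were the most one-sided of the large classes. In the cortex 355 of 626 TEC genes were lower in series A and 5 higher (median log2 difference -1.05), beside 21.1% lower and 19.1% higher over all genes. Of the TEC genes that overlap a protein-coding gene on its own strand, 239 of 326 were lower and 0 higher (73.3%, median -1.56). Of those that overlap one on the other strand only, 37 of 121 were lower, and of those outside protein-coding genes, 79 of 179. In the hippocampus 364 of 733 TEC genes were lower and 7 higher, and 242 of 389 were lower among those that overlap a protein-coding gene on its strand. A230103L15Rik, a TEC gene in an intron of Snhg14, the long transcript of the imprinted Prader-Willi region, had the largest fall of this class in the cortex among genes of log2 CPM 1 or more. It was at 1.27, 1.70 and 5.59 CPM in series A and 1.86, 17.96 and 34.99 CPM in series B (-2.97 ± 0.54, edgeR adjusted p = 0.000402). 9836 and 5844 lay at 1.86 and 2.65 CPM, within series A, and the other 12 series B libraries began at 7.06 CPM. Gm44559, in an intron of Ube3a on the other strand (-2.66 ± 0.48), and Gm37206, in an intron of Gm21992 (-2.50 ± 0.36), followed in the cortex, the latter sharing all its bases with an exon of Rbm4b on the other strand. Among the columns from 38 on, the median over the 400 TEC genes tested was -0.12 in the cortex, and over 392 it was -0.23 in the hippocampus, against -0.74 and -0.64 for the same genes over all control libraries.

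The lncRNA class held 533 lower and 66 higher genes of 2083 in the cortex and 527 lower and 147 higher of 2372 in the hippocampus. The share lower, 25.6 and 22.2%, was little above the 21.1 and 18.3% of all genes. The share higher, 3.17 and 6.2%, was far under the 19.1 and 22.5% of all genes. Again, lncRNAs that overlap a protein-coding gene on its strand were lower most often. These were 105 of 185 with 0 higher in the cortex and 107 of 206 with 4 higher in the hippocampus. Within the columns from 38 on, the median over 1802 and 1793 lncRNAs was -0.08 and -0.06, against -0.13 and -0.10 for these genes over all control libraries. Of 1564 pseudogenes, 212 were lower (13.55%, under the 21.1% of all genes) and 25 higher (1.6%) in the cortex. Of 2100 pseudogenes, 376 were lower (17.9%, beside 18.3% of all genes) and 36 higher (1.71%) in the hippocampus. These counts moved with single mice, to 130 to 133 lower in the cortex without 9838, 5845, 9631 or 9636, and to 125 (without 5353) to 228 (without 5845) in the hippocampus without 9838, 5845, 9822, 9848 or any 1 mouse of series A. The libraries with most unmapped reads held the largest pseudogene shares, 0.583 to 0.816% of gene reads against 0.125 to 0.216% in all other control libraries, and over all control libraries the pseudogene share did not pass the test (-0.0821 points in the cortex and -0.17 in the hippocampus, adjusted exact permutation p = 0.135 and 0.0753). Without the libraries with most unmapped reads the differences were smaller, -0.0185 and -0.0246 points, and passed it (adjusted exact permutation p = 0.0421 and 0.0143).

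Annotated microRNA loci were lower in series A without exception among those called, 50 of 73 in the cortex (median log2 difference -1.54) and 47 of 89 in the hippocampus. Their summed share of gene reads did not pass the test, at 0.0133 against 0.0163% in the cortex and 0.0131 against 0.012% in the hippocampus (adjusted exact permutation p = 0.593 and 0.652), and within the columns from 38 on the median over 22 and 23 loci was -0.39 and -0.12. In libraries of polyadenylated RNA, reads over a hairpin can come from the introns and exons of host transcripts and do not measure the mature microRNA. The source of the reads was not tested. Of the loci tested, 51 and 60 had a hairpin in the RefSeq table of mouse microRNAs (GRCm38.p6). The 6 hairpins below were chosen after their values were seen, because their hosts are genes described here or the loci show each kind of position. Capitals mark the mature arms that the table lists.
Mir5125: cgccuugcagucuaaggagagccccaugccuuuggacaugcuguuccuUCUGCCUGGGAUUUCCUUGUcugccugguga
Mir186: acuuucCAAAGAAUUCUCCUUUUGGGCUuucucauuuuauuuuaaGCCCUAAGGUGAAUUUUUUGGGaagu
Mir23b: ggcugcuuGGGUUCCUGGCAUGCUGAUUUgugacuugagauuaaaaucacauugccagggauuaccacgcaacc
Mir421: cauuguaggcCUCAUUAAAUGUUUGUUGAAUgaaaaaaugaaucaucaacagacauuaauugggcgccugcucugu
Mir374b: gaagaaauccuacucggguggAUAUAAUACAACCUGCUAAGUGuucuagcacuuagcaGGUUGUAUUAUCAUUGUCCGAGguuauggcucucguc
Mir341: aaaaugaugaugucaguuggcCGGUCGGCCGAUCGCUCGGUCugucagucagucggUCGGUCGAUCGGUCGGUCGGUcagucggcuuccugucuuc

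Mir5125 lies in an intron of Srrm2, on its strand, at chr17:24042265-24042343 (GRCm39). It was at 2.65, 4.05 and 6.36 CPM in the cortex of series A and at 2.59, 16.1 and 25.4 CPM in series B, a log2 difference of -1.77 ± 0.30 (edgeR adjusted p = 0.000304). 13 of 14 series B libraries lay above all of series A, and 9836, at 2.59 CPM, lay below. In the hippocampus the difference was -2.07 ± 0.37 (edgeR adjusted p = 0.000397), with 9836 at 2.95 and 5844 at 3.89 CPM within series A. Its host Srrm2, which encodes a scaffold of nuclear speckles and the spliceosome, was at 280, 356 and 448 CPM against 280, 893 and 1007 CPM in the cortex (-1.18 ± 0.19, edgeR adjusted p = 0.000277), and Mir5125 and Srrm2 differed by -0.14 ± 0.41 and -0.03 ± 0.23 within the columns from 38 on.

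An exon of a host here is one of any of its annotated transcripts, so the same stretch may be an intron of another transcript. Mir421 (chrX:102616527-102616602, an exon) and Mir374b (chrX:102616666-102616760, partly exonic) lie in Ftx, a lncRNA of the X-inactivation centre. They were lower by -1.46 ± 0.30 and -1.23 ± 0.28 in the cortex (log2, edgeR adjusted p = 0.000822 and 0.00166), beside -1.25 ± 0.24 for Ftx (edgeR adjusted p = 0.000582). Mir186, in an exon of Zranb2 (chr3:157249916-157249986), differed by -1.35 ± 0.20 and Mir23b, in an intron of Aopep (chr13:63448298-63448371), by -1.59 ± 0.28 (edgeR adjusted p = 0.000235 and 0.000317). Mir341, in an intron of Rian on the imprinted region of chromosome 12 (chr12:109577934-109578029), differed by -1.99 ± 0.36 in the cortex (edgeR adjusted p = 0.000376) and by -1.16 ± 0.52 in the hippocampus, where it did not pass the test (edgeR adjusted p = 0.0781). All but Mir5125 lay below 3 CPM in every cortex library, where counting error adds to the spread.

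Small RNAs of the nucleus moved the same way. Of 45 snoRNAs 23 were lower and 1 higher in the cortex, and of 72, 26 were lower and 1 higher in the hippocampus. The counts lower fell to 14 in the cortex without 5353 and to 17 and 16 in the hippocampus without 5353 and 9644, and within the columns from 38 on the median over 13 and 19 snoRNAs was -0.28 and -0.11. Gm25129, in an intron of Snhg11, was at 0.31, 0.65 and 1.01 CPM in series A and 0.67, 4.71 and 5.94 CPM in series B of the cortex (-2.62 ± 0.38, edgeR adjusted p = 0.000226). In the hippocampus it was at 0.60 (5349), 0.50 (5353), 0.48 (9631), 0.63 (9644) and 0.56 CPM (9636), below every series B library, whose lowest was 0.72 CPM in 5844. The snoRNA that was higher in both tissues was Snord104 (0.46 ± 0.18 and 0.72 ± 0.20, edgeR adjusted p = 0.0455 and 0.00759), which was looked up after the count was seen. Small nuclear RNAs, parts of the spliceosome, were lower in 10 of 18 and in 12 of 23 genes, and higher in 0 and 1.

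**Figure D3:**
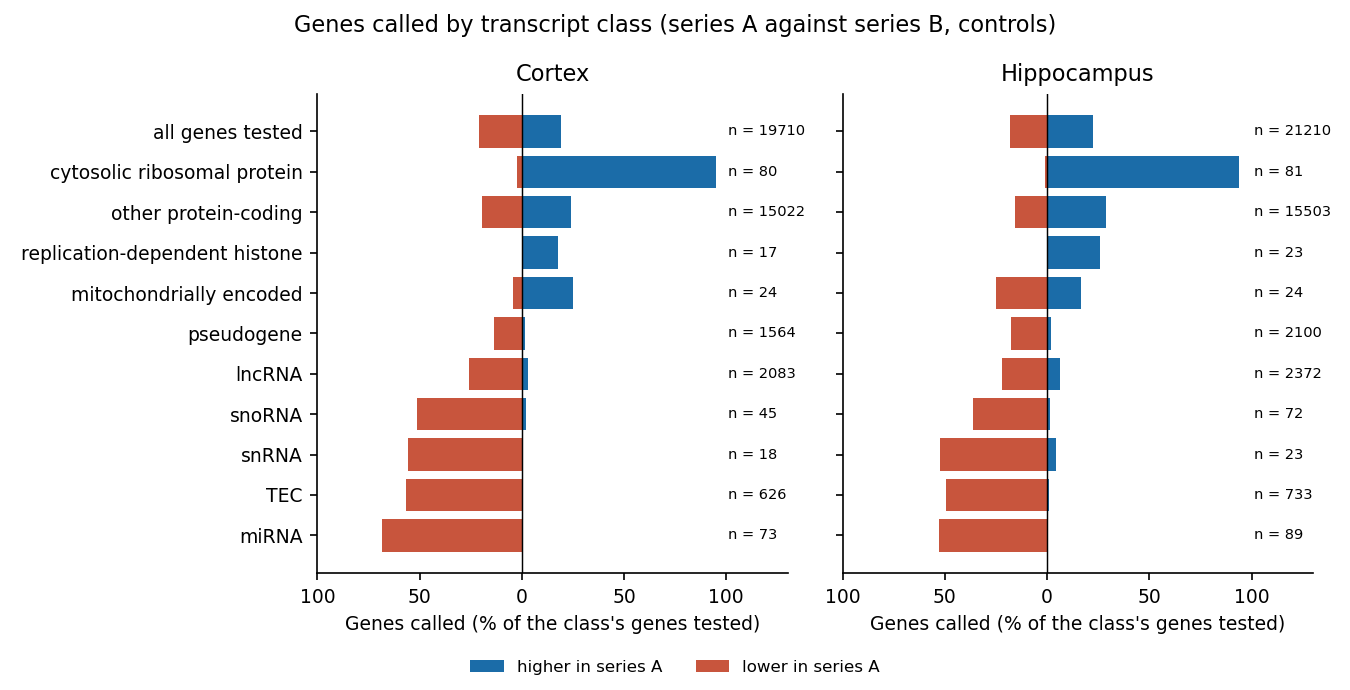
Bars give the percent of each class's tested genes that were called higher (blue, right) or lower (red, left) in series A, with the number of genes tested at the right. Cytosolic ribosomal protein genes lie far to the right in both tissues (95.0% higher in the cortex), and miRNA, TEC, snRNA and snoRNA genes lie to the left (68.5% of miRNA loci and 56.7% of TEC genes lower in the cortex).

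The genes of the cytosolic ribosome, which translates messenger RNA, were higher in series A almost throughout, 76 of 80 in the cortex (median log2 difference 0.65) and 76 of 81 in the hippocampus (median 0.79). Rps25, a protein of the small subunit, was at 199, 211 and 234 CPM in the cortex of series A against 96.4, 116 and 185 CPM in series B, and the series did not overlap. In the hippocampus series A held 249 (5349), 234 (5353), 233 (9631), 220 (9644) and 199 CPM (9636) against 95.7, 109 and 195 CPM in series B, again without overlap. The differences were 0.80 ± 0.12 and 0.92 ± 0.14 (edgeR adjusted p = 0.000226 and 0.000136), and 43.02% of the exonic bases of Rps25 lie opposite another gene. The series B libraries nearest to series A were 5844 at 185 CPM and 9836 at 182 CPM in the cortex, and 9836 at 195 CPM and 5844 at 164 CPM in the hippocampus. The members that went the other way, named after the count was seen, were Rpl24 (-1.01 ± 0.35, edgeR adjusted p = 0.0233) and Rps10 (-0.46 ± 0.16, 0.029) in the cortex. Both lost their call without 5353 or 9636, and Rps10 also without 9644. Rpl24 was at 0.167 and 0.36 CPM and Rps10 at 1.60 and 2.24 CPM in series A and B of the cortex, levels far under those of Rps25, and genes with near-identical copies are uncertain here, since reads with several matching places do not enter the counts. In the columns from 38 on, the median over 79 ribosomal protein genes was 0.05 in the cortex and 0.22 in the hippocampus.

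Replication-dependent histone genes, whose messenger RNA mostly lacks a poly(A) tail, were higher in 3 of 17 cortex genes and 6 of 23 hippocampus genes, with 0 lower. The shares higher, 17.65 and 26.1%, were near the 19.1 and 22.5% of all genes. Hist1h2bc, which encodes a histone H2B, was at 16.8, 21.02 and 24.95 CPM against 8.13, 12.2 and 16.6 CPM in the cortex without overlap (0.73 ± 0.13, edgeR adjusted p = 0.000352), and differed by 0.93 ± 0.19 in the hippocampus (edgeR adjusted p = 0.0011). Hist1h1c gave 0.43 ± 0.14 and 0.72 ± 0.16 and Hist1h2be 0.41 ± 0.16 and 0.65 ± 0.22 (edgeR adjusted p = 0.02, 0.00215, 0.0418 and 0.0249).

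Mitochondrially encoded genes were higher in 6 of 24 (25%) and lower in 1 in the cortex, beside 19.1% higher over all genes. In the hippocampus 4 of 24 were higher (16.7%) and 6 lower (25%), beside 22.5% higher and 18.3% lower over all genes. Among those higher were mt-Co1 (0.46 ± 0.12 and 0.35 ± 0.12), which encodes a core subunit of cytochrome c oxidase, and mt-Cytb (0.42 ± 0.10 and 0.44 ± 0.12). In the hippocampus mt-Co1 lost its call without 5845, 9822, 5349, 5353, 9631 or 9636 (0.30 to 0.36). Within the columns from 38 on of the hippocampus, both went the other way, by -0.25 and -0.12, neither of which passed the test.

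Nuclear genes of respiratory complex I, which passes electrons from NADH to ubiquinone, were higher in series A in 37 of 37 members in both tissues (median log2 difference 0.52 and 0.64). Ndufb10, one of its accessory subunits, was at 109, 121 and 147 CPM in the cortex of series A and 77.8, 82.4 and 116 CPM in series B (0.49 ± 0.08), where 9836 at 116 CPM was the single series B library within series A. In the hippocampus it was at 146 (5349), 139 (5353), 135 (9631), 130 (9644) and 116 CPM (9636) against 78.0, 80.4 and 107 CPM, without overlap (0.64 ± 0.08). The SS mouse 9903 held the 107 CPM, and 9836 and 5844 held 101.1 and 100.2 CPM. Ndufb8 gave 0.57 ± 0.10 and 0.77 ± 0.10. With only the columns from 38 on, the median over the 37 genes was -0.03 in the cortex and 0.11 in the hippocampus.

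Proteasome genes were higher in 29 of 31 and 27 of 31 members, with 0 lower. Psmb6, a catalytic subunit of the core particle, was at 92.2, 108 and 122 CPM against 60.2, 68.2 and 102 CPM in the cortex (0.57 ± 0.09) and differed by 0.71 ± 0.10 in the hippocampus, where the series did not overlap. Psmc5, an ATPase of the regulatory particle, gave 0.46 ± 0.08 and 0.57 ± 0.07. Translation factors were higher in 25 and lower in 1 of 33 in the cortex and higher in 26 and lower in 1 in the hippocampus, among them the initiation factor subunit Eif3k (0.53 ± 0.09 and 0.70 ± 0.09). The medians of the proteasome list within the columns from 38 on were 0.006 and 0.107, against 0.365 and 0.488 over all control libraries.

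Heat shock and chaperone genes were higher in 13 of 14 members in both tissues. Hspa8, the constitutive chaperone of the HSP70 family, was at 1283, 1484 and 1955 CPM in the cortex of series A and 736, 912 and 1273 CPM in series B (0.73 ± 0.09). In the hippocampus it was at 1619 (5349), 1622 (5353), 1951 (9631), 1303 (9644) and 1239 CPM (9636) against 649, 816 and 988 CPM (0.87 ± 0.10). The series overlapped in neither tissue, and in the hippocampus 9836 and 5844, at 942 and 953 CPM, lay within the range of the other series B libraries. Its difference within the columns from 38 on was 0.42 ± 0.17 and 0.60 ± 0.18 (edgeR adjusted p = 1.0 and 0.546), and the median over the 14 genes was 0.15 and 0.26 there, against 0.38 and 0.52. Hsp90ab1, the constitutive cytosolic HSP90, gave 0.28 ± 0.05 and 0.40 ± 0.05, and Hspe1, the mitochondrial co-chaperonin, 0.55 ± 0.10 and 0.69 ± 0.12.

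Among protein-coding genes, direction went with the number of exons of the canonical transcript. Of 3028 cortex genes with 2 to 4 exons, 36.5% were higher and 6.28% lower in series A, whereas of 1957 genes with 20 to 39 exons, 6.75% were higher and 39.5% lower, and of 326 genes with 40 exons or more, 2.76% were higher and 46.9% lower. In the hippocampus the values were 42.5 and 7.30%, 8.53 and 31.7%, and 3.05 and 38.1%. Length went the same way, with 43.95% higher and 9.79% lower in cortex transcripts of up to 1998 bases and 8.37% higher and 31.1% lower in those from 5674 bases on. At like length the exon number still split the genes. Among the cortex transcripts from 5674 bases on, genes with up to 16 exons were higher in 12.3% and lower in 21.1%, and genes with more exons in 4.06 and 41.8%. Among those of up to 1998 bases, genes with up to 6 exons were higher in 48.4% and lower in 5.80%, and genes with more in 37.1 and 15.9%. GC content split them less in the cortex, with 17.3% higher and 19.3% lower among transcripts of up to 44.67% GC and 23.8 and 22.8% among those from 56.05% on. In the hippocampus it split them more, with 13.2% higher and 25.2% lower up to 44.63% GC and 34.05% higher and 13.5% lower from 56.04% on. Genes with an annotated retained-intron transcript were lower in 25.5% and higher in 22.3% in the cortex, and genes without one in 11.8 and 26.7%. In the hippocampus the values were 19.6 and 27.5% with one and 11.2 and 31.3% without. These are descriptions over genes, which are not independent, and Rsrp1, with 5 exons, went against the trend.

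**Figure D4:**
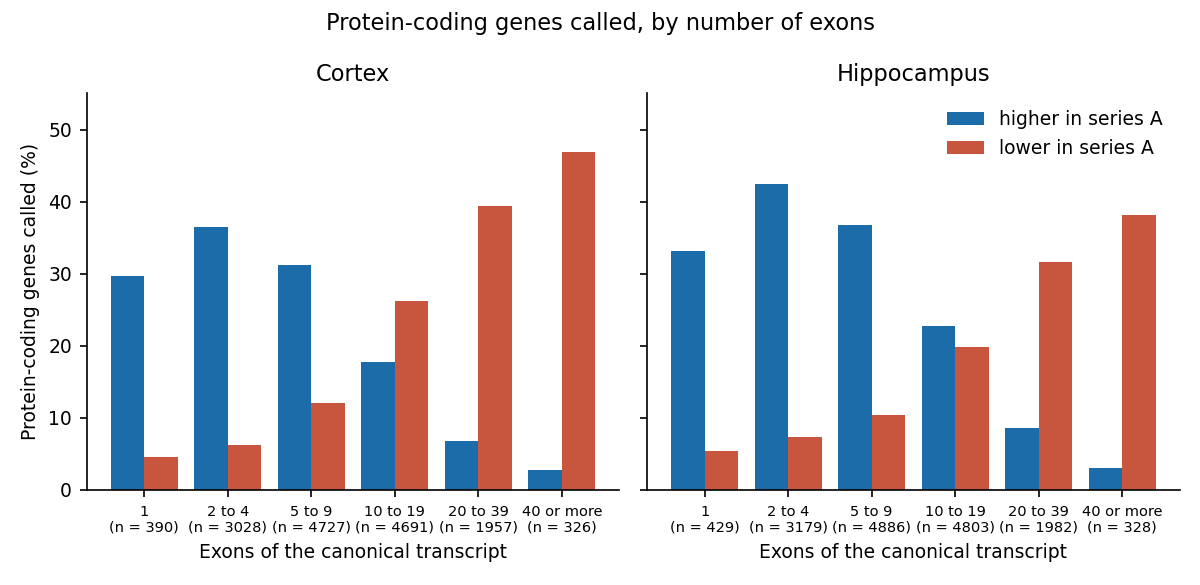
Bars give the percent of protein-coding genes called higher (blue) or lower (red) in series A, in classes by the number of exons of the canonical transcript, with the number of genes under each class. From 2 to 4 exons up to 40 or more, the share called higher falls from 36.5 to 2.76% in the cortex and from 42.5 to 3.05% in the hippocampus, and the share called lower rises from 6.28 to 46.9% and from 7.30 to 38.1%.

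Splicing regulators and arginine and serine rich proteins, which act on pre-messenger RNA in nuclear speckles, were lower in series A in 34 of 40 members in the cortex (median log2 difference -0.51) and 35 of 41 genes in the hippocampus (median -0.46), with 0 higher in either. Snrnp70, a protein of the U1 particle, gave -1.09 ± 0.17 and -0.95 ± 0.21 (edgeR adjusted p = 0.000244 and 0.00164), and Luc7l2, a further U1 factor, -0.96 ± 0.16 and -1.11 ± 0.15. The regulators Arglu1 (-0.96 ± 0.15 and -0.98 ± 0.15), Ddx17 (-0.74 ± 0.12 and -0.65 ± 0.14) and Rbm25 (-0.74 ± 0.14 and -0.72 ± 0.11) and the kinase Clk4 (-0.71 ± 0.12 and -0.67 ± 0.11), which phosphorylates SR proteins, were lower as well. Within the columns from 38 on, the median over 40 genes was -0.04 in the cortex and -0.07 in the hippocampus.

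Of the nuclear-retained lncRNAs, 11 of 14 were lower and 2 higher in the cortex, and 10 lower and 2 higher in the hippocampus. Meg3, an imprinted maternally expressed lncRNA of neurons, was at 798, 1368 and 2169 CPM in the cortex of series A against 1091, 6208 and 7200 CPM in series B (-1.93 ± 0.32, edgeR adjusted p = 0.00027). In the hippocampus series A held 1841 (5349), 949 (5353), 990 (9631), 1162 (9644) and 1009 CPM (9636), and series B 880, 5042 and 6748 CPM (-2.01 ± 0.35, edgeR adjusted p = 0.000349). 9836 and 5844 held 1091 and 2265 CPM (cortex) and 880 and 1591 CPM (hippocampus), whereas the other series B libraries began at 5134 and 4109 CPM. Snhg11, a neuronal host of snoRNAs, was at 393, 710 and 1168 CPM against 661, 3283 and 3808 CPM in the cortex (-1.95 ± 0.31) and differed by -2.02 ± 0.32 in the hippocampus. Kcnq1ot1, the antisense transcript of the imprinted Kcnq1 region, gave -1.80 ± 0.26 and -1.87 ± 0.24, Miat -1.89 ± 0.32 and -1.92 ± 0.36, and Rian -0.63 ± 0.10 and -0.69 ± 0.11. Among the columns from 38 on, the median over 14 genes was -0.07 and -0.10, and Meg3 differed by -0.27 ± 0.43 and -0.28 ± 0.29.

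Host genes of snoRNAs went both ways, with 4 higher and 5 lower of 15 in the cortex and 6 higher and 3 lower in the hippocampus. Gas5 (0.56 ± 0.17 and 0.84 ± 0.21), whose spliced RNA decays as it is translated, and Snhg8 (0.55 ± 0.13 and 0.82 ± 0.15) were higher, and Snhg17 (-0.92 ± 0.15 and -0.76 ± 0.19) was lower. The 7 sirtuins also split, with 2 higher and 4 lower in the cortex and 2 higher and 3 lower in the hippocampus. Beside Sirt7, the mitochondrial Sirt4 (-0.99 ± 0.16 and -0.76 ± 0.20) and the nuclear Sirt1 (-0.41 ± 0.10 and -0.34 ± 0.07) were lower, and the mitochondrial Sirt3 (0.27 ± 0.07 and 0.31 ± 0.06) and the myelin-enriched Sirt2 (0.19 ± 0.05 and 0.43 ± 0.08) were higher. Host gene medians within the columns from 38 on were -0.076 (cortex) and 0.039 (hippocampus), against 0.025 and 0.25 over all control libraries. Sirtuin medians there were -0.018 and 0.023, against -0.342 and -0.336. Gas5, Snhg8 and Sirt3 turned in direction there in the cortex, and Snhg17 and Sirt4 did so in the hippocampus. None of these turned values passed the test.

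Most markers of glia and vessels that differed were higher in series A. Microglia markers were higher in 9 of 10 genes in both tissues, among them the complement genes C1qa (0.69 ± 0.12 and 0.93 ± 0.14) and C1qb (0.71 ± 0.11 and 0.87 ± 0.13). C1qa was at 46.8, 51.6 and 57.8 CPM in the cortex of series A and at 25.6, 30.3 and 50.1 CPM in series B, with 5844 alone within series A. Astrocyte markers were higher in 5 of 10 in both tissues (Aldoc, the brain aldolase, 0.44 ± 0.07 and 0.50 ± 0.07, and the filament gene Gfap, 0.54 ± 0.14 and 0.49 ± 0.12). Oligodendrocyte and myelin markers were higher in 2 of 10 in cortex (20%, near the share of all genes) and 8 of 10 in hippocampus. Cnp, a myelin enzyme, gave 0.39 ± 0.11 and 0.81 ± 0.16. The cortex count was 4 or 5 without 1 of 7 mice (5899, 5854, 9836, 5844, 9631, 9633 or 9636), and the median over the 10 genes was -0.001 in either tissue within the columns from 38 on. Mbp, the myelin basic protein gene, was at 4192 (5349), 3878 (5353), 5243 (9631), 4120 (9644) and 2229 CPM (9636) in the hippocampus of series A against 1631, 2165 and 4149 CPM in series B, with 5 series B libraries inside that range (0.84 ± 0.17). In the columns from 38 on, the median over the microglia markers was 0.06 in the cortex and 0.22 in the hippocampus.

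Precursors of oligodendrocytes had 3 of 7 markers higher in both tissues (Olig1, 0.37 ± 0.10 and 0.79 ± 0.14), endothelial markers 4 and 5 of 11 (Pecam1, an adhesion protein, 0.47 ± 0.10 and 0.50 ± 0.11), and neuron markers 3 and 5 of 10, with 0 lower in each of these lists. Over all genes, 19.1% were higher in the cortex and 22.5% in the hippocampus. Pericyte and smooth muscle markers were higher in 4 and lower in 2 of 9 in the cortex and higher in 5 in the hippocampus, among them Tagln (1.09 ± 0.23 and 1.40 ± 0.27) and Acta2 (0.97 ± 0.19 and 1.25 ± 0.27), contractile genes of smooth muscle, and Tagln shares 66.7% of its exonic bases with a gene on the other strand. Choroid plexus and erythroid markers had 0 called in either tissue, with 8 choroid plexus genes and 6 and 7 erythroid genes tested. Meningeal fibroblast markers were higher in 3 of 8 in cortex and in 0 in hippocampus. Striatum markers would mark tissue from beyond the dissected piece. They were higher in 2 of 9 in the cortex (22.2%, near the 19.1% of all genes) and in 4 in the hippocampus, with 1 lower. There Penk, an opioid precursor, gave 0.71 ± 0.14 and Drd2, a dopamine receptor, 1.05 ± 0.21.

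Hippocampal subfield markers were higher in 5 of 10 genes in the hippocampus (C1ql2 of the dentate gyrus, 1.15 ± 0.23, and 0.62 without 9631) and 1 in the cortex. Cortical layer markers were lower in 2 of 10 in the hippocampus (20%, near the 18.3% of all genes) and 1 in the cortex, with Cux2 at -0.54 ± 0.13 in the hippocampus. The part that dissection had in these differences was not tested. Of the genes of the Y chromosome, 2 of 4 were lower in cortex and 4 of 4 in hippocampus, with the medians at -0.31 and -0.36.

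Of the synapse lists, glutamate receptor and postsynaptic genes were called about as often as all genes. Presynaptic vesicle genes were more often higher and less often lower than all genes. Of 30 glutamate receptor and postsynaptic genes 5 were higher and 6 lower in the cortex, as were 5 and 8 in the hippocampus, beside 19.1% higher and 21.1% lower over all cortex genes and 22.5 and 18.3% over all hippocampus genes. Gria2, a subunit of AMPA receptors, was at 379, 411 and 531 CPM in the cortex of series A and 458, 627 and 741 CPM in series B, with 9836 and 5844 within series A and the other 12 above it (-0.50 ± 0.10 and -0.48 ± 0.09). Gria3 gave -0.29 ± 0.06 and -0.45 ± 0.07, and Dlg4, the postsynaptic scaffold, 0.19 ± 0.04 and 0.22 ± 0.07 (the latter lost without 5349 or 9631). Of 25 presynaptic vesicle genes 10 were higher and 2 lower in the cortex (40 and 8%), as were 8 and 1 in the hippocampus (32 and 4%). The vesicle protein gene Syp gave 0.29 ± 0.07 and 0.40 ± 0.06.

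Clock genes, which set daily rhythms, were higher in 1 and lower in 3 of 19 in the cortex and in 1 and 6 in the hippocampus, fewer than that share of all genes in either direction in the cortex. Per3 was at 34.3, 40.1 and 50.9 CPM against 44.99, 88.2 and 104 CPM in the cortex, with 9836 at 44.99 CPM within series A and the other 13 above it (-0.97 ± 0.14 there and -0.81 ± 0.17 in the hippocampus, edgeR adjusted p = 0.000226 and 0.00118). Per2 gave -0.65 ± 0.16 and -0.74 ± 0.12 and Nr1d2, a repressor of the clock, -0.21 ± 0.07 and -0.41 ± 0.08, the former lost without 5353 or 9633. Glucocorticoid targets were higher in 1 and lower in 2 of 14 in the cortex, as were 3 and 3 in the hippocampus, where Lcn2, an acute-phase protein gene, had means of 0.999 and 0.242 CPM (log2 difference 1.999 ± 0.446). Immediate early genes were higher in 1 of 18 in the cortex and in 3, with 3 lower, in the hippocampus. Interferon-stimulated genes were higher in 4 and lower in 1 of 15 in the cortex and higher in 2 in the hippocampus, with Ifitm3 at 0.68 ± 0.17 and 1.00 ± 0.22 (60.9% of its exonic bases lie opposite another gene). In the cortex 19.1% of all genes were higher and 21.1% lower. There the shares were 7.14 and 14.3% of glucocorticoid targets, 5.56 and 0% of immediate early and 26.7 and 6.67% of interferon-stimulated genes. In the hippocampus 22.5% of all genes were higher and 18.3% lower, beside 21.4 and 21.4%, 16.7 and 16.7%, and 13.3 and 0% of these lists.

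A few of the largest differences rested on single mice or on part of a series. Pttg1, which encodes securin, was at 28.4 CPM in the cortex and 33.3 CPM in the hippocampus of 9631, the library with reads of mouse beta-globin, and at 2.10 CPM or less in every other control library (3.06 ± 0.77 and 3.80 ± 0.88). Without 9631 its differences were 0.37 and 0.40 and did not pass the test. Gm8730, a processed pseudogene at chr8:103591477-103592430, was at 0.532 to 1.22 CPM in the cortex of series A, and in series B 8 libraries lay above that range and reached 37.02 CPM while 3 lay below it, down to 0.247 CPM (-3.95 ± 1.03). Within the columns from 38 on its difference was -4.35 ± 0.85 in the cortex (edgeR adjusted p = 0.982). mt-Atp8, a mitochondrial subunit of ATP synthase whose gene overlaps mt-Atp6 on the same strand, was lower in the hippocampus (-6.63 ± 1.82, edgeR adjusted p = 0.00729), where 0.105 to 0.258 CPM in series A stood against 0.261 to 3.11 CPM in 9 series B libraries and 41.8 to 59.3 CPM in the 4 with most unmapped reads. In the cortex its difference of -2.92 did not pass the test (edgeR adjusted p = 0.0706). Myoc, a gene of the meninges and of some glia, gave 1.83 ± 0.44 in the cortex, and Ccdc153 (2.20 ± 0.39), a gene of ciliated cells, and Lbhd2 (2.95 ± 0.64) were among the largest rises in the hippocampus.

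The series difference was then set against the share itself. With the share of reads outside genes as a further term, 1 of 19710 cortex genes (0.00507%; 710 at an unadjusted p under 0.05) and 3356 of 21210 hippocampus genes (15.8%, with 6.94% higher and 8.89% lower; 6747) passed the edgeR test, and with the share of uniquely mapped reads 0 passed in either tissue (614 and 3092 at an unadjusted p under 0.05). Of the complex I genes 0 passed in cortex and 25 in hippocampus with the first of these terms, and of the splicing list 0 and 7. The log2 difference of Rsrp1 became -0.22 and -0.20 (edgeR adjusted p = 1.0 and 0.257) and that of Sirt7 0.02 and 0.09 (1.0 and 0.734), while in the hippocampus Hspa8 kept 0.72 and Rps25 0.61 (0.015 and 0.0231). As the share and the series go together in these libraries, a term for the one takes up part of the other, and the parts of series and share cannot be told apart there.

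Within series B, the 2 control libraries after column 37 could be set against the others, with genotype as a term, although both are labelled AA and 5844 had erythroid genes at the level of SS mice. In the cortex 6336 of 17393 genes differed (36.4%; 3090 higher after column 37 and 3246 lower), and in the hippocampus 4355 of 18832 (23.1%; 1888 and 2467). Of 80 cytosolic ribosomal protein genes 74 and 70 were higher, of 37 complex I genes 36 and 33 were higher, and of the splicing genes 34 of 40 and 29 of 41 were lower. Meg3 was lower by -1.85 ± 0.20 and -2.13 ± 0.23, Rsrp1 by -0.71 ± 0.10 and -0.86 ± 0.13 (edgeR adjusted p = 0.000124 and 0.000504) and Sirt7 by -0.64 ± 0.12 and -0.94 ± 0.14 (0.000761 and 0.000504). Rps25 was higher by 0.83 ± 0.06 and 0.77 ± 0.11. Hspa8 was higher by 0.33 ± 0.11 in the cortex (edgeR adjusted p = 0.0247), and its 0.21 ± 0.12 in the hippocampus did not pass the test (0.25). All 5 erythroid markers tested were higher after column 37 in both tissues, with the largest medians (3.902 and 3.581) among the lists. Without 5844, with 9836 alone after column 37 and assumed to vary like the others, 5432 of 17222 genes (31.5%) and 3539 of 18863 (18.8%) differed (15.4 and 7.26% higher, 16.1 and 11.5% lower). There 72 and 63 of 80 ribosomal protein genes and 36 and 25 of 37 complex I genes were higher, 32 of 40 and 29 of 41 splicing genes were lower, and 3 and 1 of the 5 erythroid markers were higher (medians 1.40 and 0.80). Rsrp1 differed by -0.95 ± 0.11 and -1.10 ± 0.15 and Sirt7 by -0.82 ± 0.16 and -1.05 ± 0.19 in that fit (edgeR adjusted p = 3.34e-05, 0.000709, 0.00117 and 0.00327). This comparison shares its series B libraries with that of the series, so the values are given side by side and no overlap is counted.

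RSD + minocycline mice of series B share no library with the control mice and stand on both sides of column 37 in both genotypes, 17 before and 10 after in each tissue, after mouse 9877, whose counts are identical with those of a minocycline mouse, was left out. Their share outside genes was 9.43 to 13.9% and 4.36 to 6.09% in the cortex, and 7.82 to 24.01% and 4.22 to 9.49% in the hippocampus. Between the blocks, 8944 of 17668 cortex genes (50.6%) and 11081 of 17458 hippocampus genes (63.5%) differed. Of the 3751 genes that were higher in series A among the cortex controls and tested here, 3000 (79.98%) were higher after column 37 and 0 lower, and of 3846 that were lower in series A, 3178 (82.6%) were lower and 6 higher; among 10064 genes not called between the series, 18.5% were higher and 8.96% lower. In the hippocampus 3499 of 4682 (74.7%) were higher and 57 lower, and 2685 of 3257 (82.4%) lower and 16 higher, with 19.04% higher and 31.64% lower among those not called. Over genes, both log2 differences had a Pearson correlation of 0.814 in the cortex (17661 genes) and 0.74 in the hippocampus (17458), given as a description since genes are not independent.

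Rsrp1 was at 408 to 617 CPM before and 166 to 397 CPM after column 37 in the cortex of these RSD + minocycline mice (-0.76 ± 0.11), and at 361 to 454 and 165 to 248 CPM in the hippocampus (-1.03 ± 0.05), and the blocks overlapped in neither tissue. Sirt7 was at 42.92 to 55 and 20.72 to 34.65 CPM in the cortex and at 39.5 to 55.1 and 21.6 to 28.6 CPM in the hippocampus, without overlap in either. Of their ribosomal protein genes 77 of 79 and 77 of 80 were higher after column 37, of complex I genes 37 of 37 in both tissues, and of TEC genes 308 of 468 and 293 of 416 were lower. Among all cortex genes tested, 27.5% were higher after column 37 and 23.1% lower. For hippocampus genes these shares were 30.5 and 33%. Gm8730 and mt-Atp8 in both tissues and Pttg1 in the cortex did not pass the test (edgeR adjusted p = 0.706 and 0.764, 0.688 and 0.31, and 0.166).

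The slope of each gene on the share was also fitted in these 27 RSD + minocycline libraries per tissue. It passed the edgeR test in 8638 of 17668 cortex genes (48.9%) and 6564 of 17458 hippocampus genes (37.6%). Of all genes tested, 23.2% rose with the share and 25.7% fell in the cortex, and 20.4% rose and 17.2% fell in the hippocampus. Of the cortex genes higher in series A 2970 of 3751 fell as the share rose (79.2%) and 0 rose, and of those lower in series A 3257 of 3846 rose (84.7%) and 4 fell. The hippocampus counts were 2481 of 4682 (52.99%) with 16 rising, and 2326 of 3257 (71.4%) with 0 falling. Among genes not called between the series, 15.5% fell and 8.41% rose in the cortex, and 5.54% fell and 12.75% rose in the hippocampus. Meg3 rose by 0.35 ± 0.03 on the log2 scale per percentage point in the cortex and Rsrp1 by 0.15 ± 0.02, and Ndufb10 fell by 0.10 ± 0.02. Within the blocks the slope called fewer genes, 4639 cortex and 461 hippocampus genes in the columns up to 37 (17 libraries) and 0 and 11 in those from 38 on (10 libraries; 1106 and 3252 at an unadjusted p under 0.05). In the columns up to 37, 742 of the 3748 cortex genes higher in series A fell with the share and 425 rose (median slope -0.0075), and of 3925 lower in series A 1015 rose and 182 fell (median 0.0462). In the hippocampus from column 38 on, the median slopes had the opposite sign to those over all 27 libraries, 0.0394 for genes higher and -0.0369 for genes lower in series A. The SS library 9812, at 24.01%, weighed on the hippocampus, where 9926 genes were called without it.

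**Figure D5:**
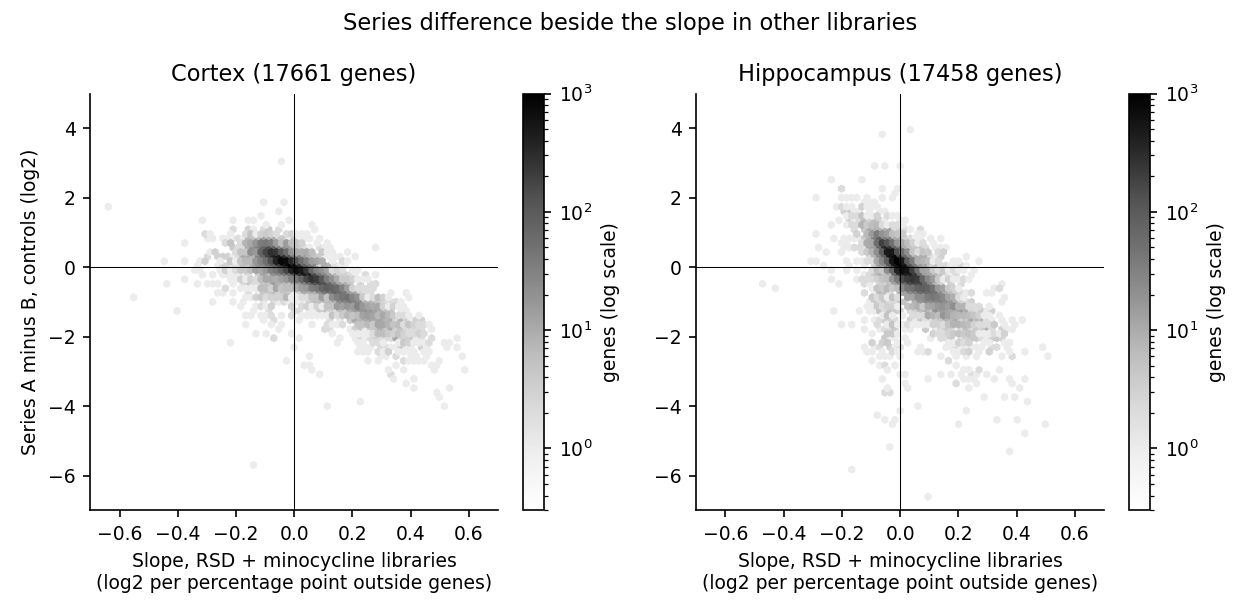
Each hexagon counts genes (grey scale, logarithmic) by the slope of their log2 level on the share of reads outside genes in RSD + minocycline libraries of series B (x axis, log2 per percentage point) and by the log2 difference of series A minus series B in control libraries (y axis). Genes lie along a falling line through the origin (Pearson r -0.829 over 17661 cortex genes and -0.74 over 17458 hippocampus genes), and in the hippocampus a cluster without slope lies below 0.

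The series difference was also compared between the tissues and between the genotypes. Of the cortex genes called higher in series A and tested in both tissues 3139 of 3770 (83.3%) were also higher in the hippocampus, where they made up 67.1%, and of those lower 2765 of 4125 (67.03%, and 75.1% of the hippocampus genes) were also lower, with 0 opposite, in tissues that come from the same mice. The interaction of series and tissue was called for 0 of 21417 genes (edgeR; 1004 at an unadjusted p under 0.05) and, with mouse as a replicate block, for 1 of 21399 (0.00467%), and that of series and genotype for 0 genes in either tissue (793 and 789 at an unadjusted p under 0.05, with 2 SS mice in series A). With edgeR's RLE size factors the genotype interaction was also called for 0 genes.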

How the data were processed

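Cortex and hippocampus of male Townes mice were sequenced as directional, polyadenylated, single-end libraries. The authors used STAR on GRCm39 and deposited raw counts per gene (GENCODE annotation, release and strand setting not given in the sources used here). Each library also has 4 summary lines, for reads unmapped, mapped to several places, outside annotated genes, or ambiguous between genes. These lines were kept out of library sizes. The line of reads outside annotated genes, taken over all reads, gave the shares. Of 55416 genes listed, 5111 had no symbol in the table used; 54749 were found in GENCODE M39, which gave classes, exons and coordinates. 3 columns without a usable sample were not used.

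Genes were kept by filterByExpr (minimum count 10, total 15) and tested with the quasi-likelihood test of edgeR 4.0.16 (R 4.3.3) after TMM scaling, with genotype as a term and Benjamini-Hochberg adjustment over all genes tested. Log2 CPM carried a prior count of 2. Shares were compared with exact permutation tests within genotype. The test was checked on simulated counts with known changes. Alternatives were DESeq2 1.42.0, RLE factors, the likelihood-ratio test, no filter, no genotype term, a single genotype, further terms and left-out libraries. Those on the table columns, on unmapped reads and on uniquely mapped reads, and those without 9836 and 5844, 5844 alone, 9812 or 5648, were chosen after seeing the data.

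Named genes were Rsrp1 and Sirt7, the 8 higher and 8 lower genes with the largest differences per tissue (mean log2 CPM of at least 1), the 5 higher and 5 lower of highest level, and up to 4 called genes per list, of which a part is described; others are said to be chosen after their values were seen. The members and lists were chosen with earlier results of these data known. The same mouse gave both tissues, and the deviations of its libraries from their group means correlated with a median r of 0.468 (0.085 to 0.811, 18 mice, 13119 genes; 17 mice over 0.1), against -0.026 between mice. The spread of counts at depths of 16295042 to 68729401 reads on genes covers counting error and the spread between mice.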

Additional observations from a re-analysis of the deposited data

Results flagged for a closer look

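In each group of 4 to 10 control libraries the highest and lowest value was compared with the rest, for 210 groups, and 24 held a value far from the others by Dixon's ratio, where chance gives about 1 in 20. Mouse 9631 of series A, labelled AA, held Pttg1 at 28.4 CPM in the cortex (next 1.92) and 33.3 CPM in the hippocampus (next 1.98), and its cortex had the lowest pseudogene share of series A, 0.125% of gene reads (next 0.178). In the cortex of series A, 9633 held A230103L15Rik at 5.59 CPM (next 2.52) and 9644 held mt-Atp8 at 4.94 CPM (next 0.555). In the hippocampus of series A, 9644 held the highest miRNA and rRNA shares, 0.0203 and 0.778% (next 0.0118 and 0.463) and 5349 held Meg3 at 1841 CPM (next 1162).

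Among mice of series B labelled AA, 9836 held Hspa8 at 1273 CPM in the cortex (next 1020), and in its hippocampus Mbp at 4149 CPM (next 2447), mitochondrially encoded genes at 7.78% (next 5.45) and other protein-coding genes at 88.9%, below the next 91.2. 5844 held Pttg1 at 1.42 CPM (next 0.512; the SS mice of series B held 1.24 to 1.77) and misc_RNA at 0.00146% (next 0.00108) in the cortex. Among SS mice of series B, the cortex of 9824 had the highest miRNA and rRNA shares, 0.0492 and 1.34% (next 0.0146 and 0.313), and Mir5125 at 25.4 CPM (next 17.7), and the cortex of 5854 had Mbp at 2545 CPM (next 1974). The hippocampus of 9903 had ribosomal protein genes at 1.37% (next 1.01), histone genes at 0.0142% (next 0.00862), Sirt7 at 60.5 CPM (next 46.7), Ndufb10 at 107 (next 79.3), Psmb6 at 82.7 (next 68.1) and Srrm2 at 535 CPM, below the next 953. What set these libraries apart was not tested.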

How the results depend on the processing

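Against 7941 genes called for cortex and 8646 for hippocampus, AA mice alone gave 1402 and 3335, SS mice alone 4336 in the hippocampus, the share of reads outside genes as a term 1 and 3356, the share of uniquely mapped reads as a term 0 and 0, and the columns from 38 on 0 and 0. The other alternatives stayed within 1.5 times. Leaving out each mouse in turn gave 6083 (without 5353) to 9137 (without 9836) in the cortex and 6878 (5353) to 9678 (9836) in the hippocampus. With mouse as a replicate block, the series-by-tissue interaction was called for 1 of 21399 genes (3058 at an unadjusted p under 0.05) against 0 without it. Of the called genes, 47.5% were higher in series A in the cortex and 55.1% in the hippocampus, where RLE gave 48.9%, DESeq2 46.2%, no filter 50.3% and the likelihood-ratio test 52.1%.

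The difference in the share of reads outside genes was -4.42 to -3.86 points in the cortex and -3.57 to -3.03 in the hippocampus without each mouse in turn, and -0.511 (exact permutation p = 0.467, smallest possible with 15 regroupings above 0.05) and 0.0702 (p = 0.8, 10 regroupings) within the columns from 38 on. There the class differences, in points of gene reads, were 0.0513 for ribosomal protein, -2.3e-05 for histone, 0.229 for mitochondrial, -0.0716 for lncRNA, -0.00421 for TEC, -0.000206 for snoRNA and -0.000145 for snRNA genes in the cortex, and 0.259 for ribosomal protein, 0.00258 for histone, -0.0486 for lncRNA, -0.00726 for TEC, -4.15e-05 for snoRNA and -0.000204 for snRNA genes in the hippocampus. Without each mouse in turn, the share of mitochondrial genes in the cortex differed by 0.72 to 1.408 and that of snRNA by -0.000423 to -0.000231, with the mitochondrial difference past the threshold except without mouse 9644 or 5353 and the snRNA difference except without 9636, 9644 or 5353; in the hippocampus other protein-coding genes gave -0.571 to -0.259, mitochondrial genes 0.369 to 0.776 and rRNA 0.157 to 0.262 (the first and second passed only without mouse 9836, and rRNA only without 9631, 5899, 9836 or 9903). Other protein-coding genes gave 0.454 in the cortex with mitochondrial genes out of the denominator, and -0.847 and -0.598 without 9836 and 5844, where hippocampus mitochondrial genes gave 0.851 and rRNA 0.263. Without the libraries with most unmapped reads pseudogenes gave -0.0185 and -0.0246.

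The slope on the share was called for 4639 cortex and 461 hippocampus genes in the columns up to 37, for 0 and 11 from 38 on, and for 9926 in the hippocampus without 9812.

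Among single genes past the test in the comparison of the series or in the alternative, the log2 difference of series A minus series B turned in direction under 4 settings, and none of these values passed the test. With the share of reads outside genes as a term these were Sirt7 (0.021), A230103L15Rik (0.188), Rpl24 (0.157), Rps10 (0.081) and Mir5125 (0.02) in the cortex. With the share of uniquely mapped reads they were Sirt7 (0.071), Sirt3 (-0.008), Meg3 (0.048), Snhg11 (0.004), Miat (0.082), Ftx (0.16), Srrm2 (0.072), Ddx17 (0.014), Rbm25 (0.028), Gas5 (-0.038), Snhg8 (-0.027), Syp (-0.047), Per2 (0.031), A230103L15Rik (0.751), Gm44559 (0.308), mt-Co1 (-0.045), mt-Cytb (-0.037), mt-Rnr2 (-0.032), Rpl24 (0.445), Rps10 (0.106), Mir5125 (0.278), Mir421 (0.045) and Mir374b (0.058) in the cortex and Rsrp1 (0.028), Sirt4 (0.061), Miat (0.143), Srrm2 (0.211), Ddx17 (0.13), Snrnp70 (0.145), Snhg17 (0.206), Per3 (0.037), mt-Co1 (-0.16), mt-Cytb (-0.003), Mir186 (0.315) and Mir374b (0.06) in the hippocampus. With the columns from 38 on they were Sirt3 (-0.018), Gas5 (-0.051), Snhg8 (-0.045), Per2 (0.127), Nr1d2 (0.043), Cnp (-0.013) and A230103L15Rik (0.295) in the cortex and Sirt4 (0.158), Srrm2 (0.027), Ddx17 (0.001), Snrnp70 (0.082), Snhg17 (0.103), mt-Co1 (-0.245), mt-Cytb (-0.119) and Mir186 (0.021) in the hippocampus. With the share of unmapped reads Gm13341 turned in the hippocampus (0.319). Sirt7 in the hippocampus, which passed the test in neither, went from -0.398 to 0.094 with the share of reads outside genes, 0.311 with that of uniquely mapped reads and 0.391 in the columns from 38 on. The cause was not tested.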
